A study of Coregonus lavaretus with 13 samples.

Results

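Putative long non-coding RNAs (lncRNAs) of whitefish (Coregonus lavaretus) liver were followed to day 9 of exposure to microcystin-LR (MC-LR), which is 2 days after a repeated injection of the toxin. The members are all 2543 contigs that the authors listed at day 9, of 4729 contigs listed on any of the 3 exposure days, and each was read in 3 MC-LR livers of day 9 and 4 PBS livers of day 1, 7 of the 13 livers of the series. The MC-LR fish were juveniles of the Rutki-strain injected into the body cavity with MC-LR at 100 μg/kg, at the start and again on day 7. The PBS fish, of the same strain, received a single injection of the vehicle, phosphate buffered saline, and were sampled on day 1. All fish were kept on minimal feed, and groups were housed in separate tanks. Time since the first injection, the number of injections, the tank and the toxin differ together between these groups, so their effects cannot be told apart. Every liver came from a separate fish and gave 1 library of polyadenylated RNA. A contig entered the deposited table of day 9 through the authors' own test on these same 7 fish (adjusted p under 0.001), so the direction and the existence of each change are what chose the members. They are given below as a description, and no test of them is offered as support.

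MC-LR is a cyclic peptide of cyanobacteria that liver cells take up through organic anion transporters and that inhibits the serine/threonine phosphatases PP1 and PP2A. lncRNAs are transcripts without a recognised open reading frame, and many are tied to the state of a cell by acting on chromatin, on splicing or as decoys for other RNAs. Their sequences diverge quickly between species, so a lncRNA of a fish without an annotated transcriptome is often known only as an assembled contig. A contig is named here by its Trinity ID, in which the last number tells apart the isoforms of a Trinity gene. Trinity IDs are labels of the assembly that a gene table does not hold, and no contig sequence was searched here. The contigs are therefore given without a gene name, a genome position or a function. Markers of liver or of other cell types could not be looked up among them.

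Reads were compared as normalized counts, which are counts divided by the size factor of the library. The size factors were 1.239, 1.277 and 1.371 in MC-LR fish 1, 2 and 3 of day 9, against 0.822 to 0.920 in the PBS fish. The listed contigs took 852976, 851857 and 787813 reads in the MC-LR fish and 814309 to 995539 reads in the PBS fish, which is part of each library and not its depth. The sizes below are relative to the authors' scaling: log2 fold changes lay 0.53 higher (median over contigs) with libraries scaled by their clean reads and 0.89 higher with edgeR's TMM factors of the listed contigs.

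At day 9, 868 contigs (34.1% of the 2543 listed) had a log2 fold change above 2 and are called raised, and 1474 (58.0%) had one below -2 and are called lowered. With clean reads these counts were 954 and 1322, and with TMM 966 and 1173. The fold changes come from edgeR's quasi-likelihood fit and are MC-LR over PBS. Of the 201 contigs in between, 98 were higher and 103 were lower in the MC-LR livers. The median log2 fold change was 4.03 among the raised contigs (quartiles 3.001 and 5.644) and -4.25 among the lowered ones (quartiles -5.65 and -3.18). In bulk liver, fewer cells of a type and less RNA per cell cannot be told apart, and this holds for each of these values.

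**Figure D1:**
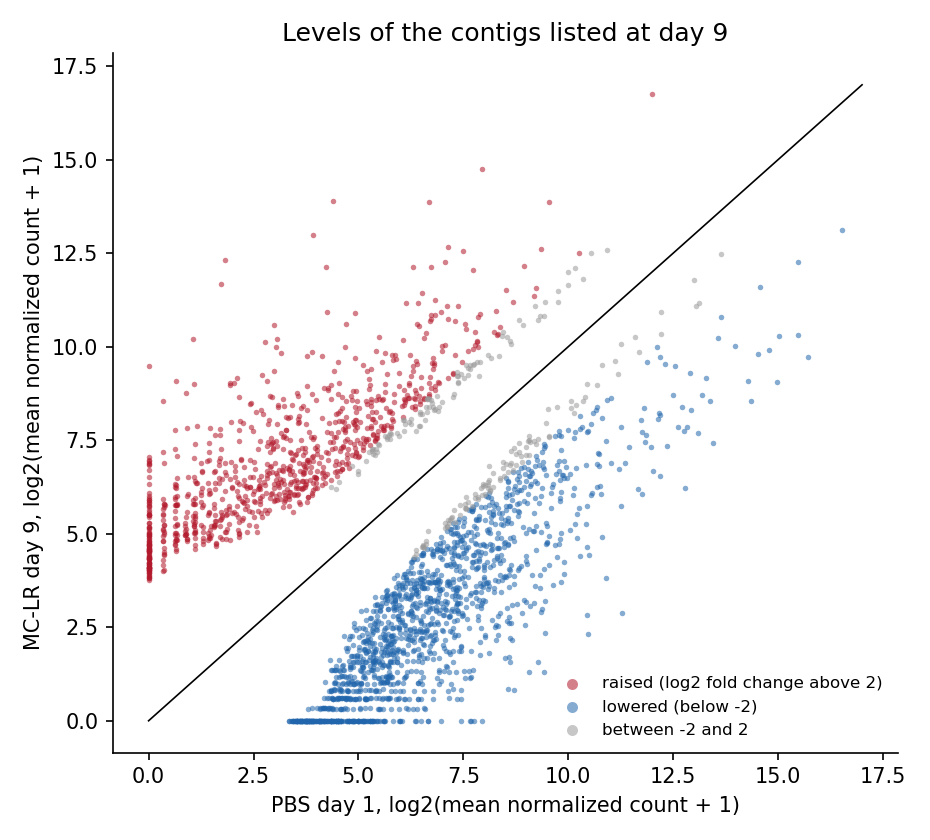
Each point is 1 of the 2543 contigs listed at day 9, with its mean in 4 PBS livers of day 1 on the x axis and its mean in 3 MC-LR livers of day 9 on the y axis, both as log2(normalized count + 1). The 868 raised contigs lie above the diagonal of equal levels and the 1474 lowered ones below it, and the empty band along the diagonal reflects that only contigs with a difference were listed.

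Every MC-LR fish lay above every PBS fish in 955 contigs (37.6% of those listed) and below every PBS fish in 1537 (60.4%). Among the raised contigs 11 of 868 had overlapping groups, and among the lowered ones 40 of 1474 did. In the same edgeR fit 652 contigs were higher (25.6%) and 751 lower (29.5%) at an unadjusted p under 0.001. This split turned with the scaling, to 881 higher and 440 lower with clean reads and to 924 higher and 245 lower with TMM. The unadjusted p in edgeR ranged from 3.15e-07 to 0.0434 over the 2543 contigs. The counts of contigs outside the list were not analysed here, so no p adjusted over all tests was computed.

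The raised contigs were mostly scarce in control livers, which their listing by a difference from the controls favours. Their median level was 103 normalized counts in the MC-LR livers and 7.23 in the PBS livers. Contigs that were nearly silent in PBS livers made up 185 of the 868, with a PBS mean under 1, and they stood at a median of 25.8, 36.0 and 23.3 normalized counts in MC-LR fish 1, 2 and 3. In 104 of the raised contigs no PBS fish had a single read. These 104 reached 12.5 to 718 normalized counts in the MC-LR livers, at least 14.4-fold to at least 831-fold higher against a floor of 3 reads over the PBS group, with a median bound of 28.1-fold. With these contigs at their bound, the median log2 fold change of the raised contigs was 4.01. At the other end, 62 raised contigs had a PBS mean of 100 to 1000, and their median levels were 6.23, 7.58 and 5.43 times the PBS mean in MC-LR fish 1, 2 and 3. No MC-LR fish was without reads on any raised contig.

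The summed level of the raised contigs was 538925, 515862 and 347655 normalized counts in MC-LR fish 1, 2 and 3, against 26410, 30030, 28738 and 32866 in the PBS fish. A small number of contigs carried much of it. The most abundant raised contig held 23.6% of the sum, and the next held 5.88%, with 10830, 56744 and 14880 normalized counts in MC-LR fish 1, 2 and 3 and 53.5 to 460 in the PBS fish. MC-LR fish 2 thus had 5.24 times the level of MC-LR fish 1 on that contig, and the groups lay far apart all the same. The next most abundant contig after it had 9903, 15948 and 19899 normalized counts in the MC-LR fish and 9.73 to 30.2 in the PBS fish, a log2 fold change of 9.55 (SE 0.75). Another isoform of the same Trinity gene stood at 4979, 9433 and 9869 normalized counts in the MC-LR fish, against 1.22 to 20.2 in the PBS fish, with the same order of the 3 MC-LR fish. Isoforms share sequence, so reads of these contigs may have been divided between them. Among the 10 most abundant raised contigs the MC-LR fish were most even in the eighth, at 6452, 6534 and 5830 normalized counts, against 562 to 727 in the PBS fish. The order of the MC-LR fish varied among these 10. MC-LR fish 3 was lowest at ranks 1, 7, 8 and 10 and highest at ranks 3, 6 and 9, and MC-LR fish 1 was lowest at the remaining ranks.

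The lowered contigs were the more abundant class in control livers and stood at a few counts in the MC-LR livers. The listing favours this contrast. A contig could be listed as lowered only with enough reads in the PBS livers, and as raised only with enough in the MC-LR livers. Their median level was 4.96 normalized counts in the MC-LR livers and 83.8 in the PBS livers. Reads were absent from all 3 MC-LR fish in 202 lowered contigs, whose PBS means ran from 9.17 to 246. They were at least 11.9-fold to at least 318-fold lower, against a floor of 3 reads over the MC-LR group, with a median bound of 24.8-fold, and with these contigs at their bound the median log2 fold change of the lowered contigs was -4.09. A further 205 lowered contigs had reads in only 1 of the 3 MC-LR fish, 280 had them in 2, and 787 had them in all 3.

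The summed level of the lowered contigs was 38446, 29082 and 122905 normalized counts in MC-LR fish 1, 2 and 3, against 743180 to 1044430 in the PBS fish. MC-LR fish 3 therefore kept 13.1% of the mean PBS sum, while MC-LR fish 1 and 2 kept 4.10% and 3.10%. The most abundant lowered contigs also varied among control fish. The second in rank had 1115, 178 and 1220 normalized counts in MC-LR fish 1, 2 and 3, against 122148, 6224, 6152 and 80930 in PBS fish 1 to 4, so that the PBS fish differed by up to 19.9 times. The fifth in rank had the same high and low PBS fish, with 502, 135 and 3127 normalized counts in the MC-LR fish and 54234, 16024, 14336 and 48134 in the PBS fish. In all 10 of the most abundant lowered contigs every MC-LR fish lay below every PBS fish. MC-LR fish 3 had the highest level of the 3 MC-LR fish in each of the 10.

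The 3 MC-LR fish did not depart from the controls to the same extent. For each contig the level in a fish was set against the PBS mean, as the log2 ratio with a pseudocount of 1. Over the raised contigs the median log2 ratio was 3.53, 3.82 and 3.26 in MC-LR fish 1, 2 and 3, or 11.6-fold, 14.1-fold and 9.57-fold, and in the PBS fish it lay between -0.14 and 0.00. Over the lowered contigs it was -4.14, -4.46 and -3.31 in MC-LR fish 1, 2 and 3, against -0.28 to 0.05 in the PBS fish. MC-LR fish 2 was thus farthest from the controls and MC-LR fish 3 nearest to them in both classes. In the lowered class this order held with clean reads and with TMM, while in the raised class TMM put MC-LR fish 3 (4.16) beside MC-LR fish 2 (4.18) and above MC-LR fish 1 (4.02).

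**Figure D2:**
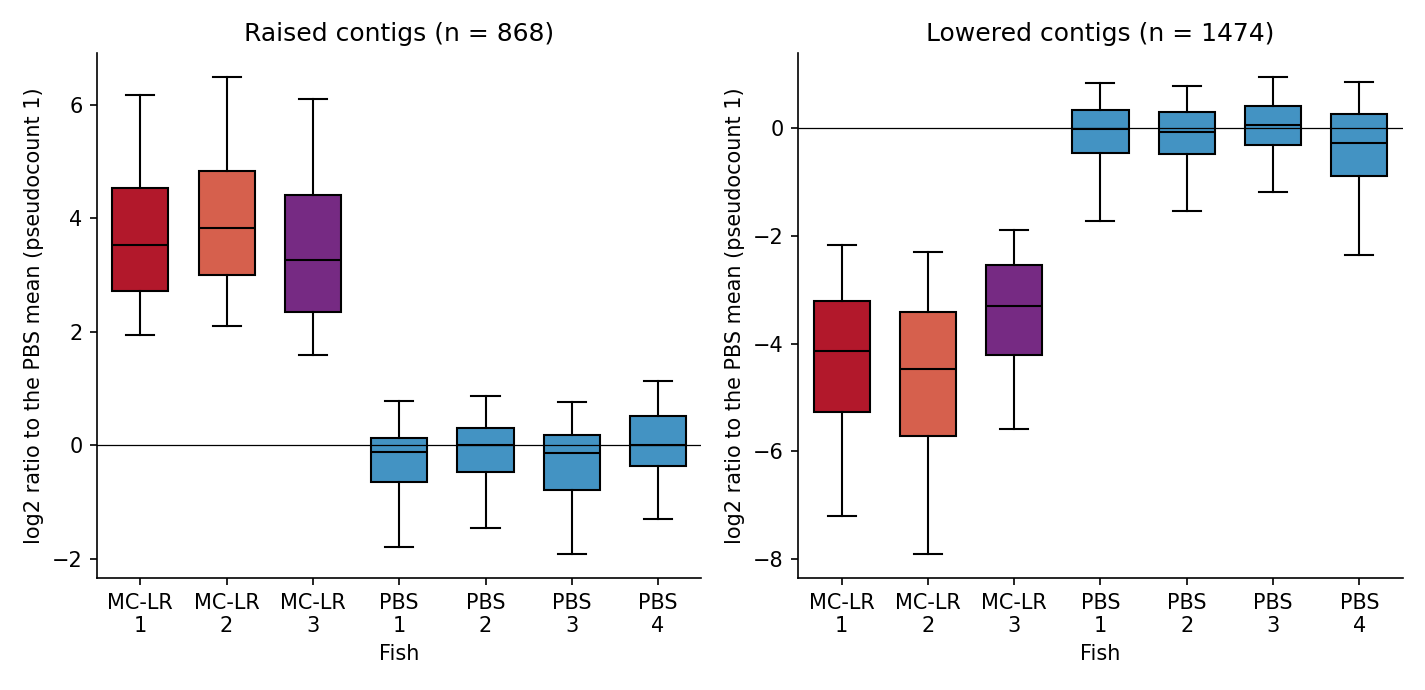
Boxes show, for each fish, the log2 ratio of its normalized count to the PBS mean (pseudocount 1) over the 868 raised contigs (left) and the 1474 lowered ones (right), with the median, the quartiles and whiskers at percentiles 5 and 95. In the lowered class MC-LR fish 3 has a median of -3.31, nearer to the PBS fish than MC-LR fish 1 (-4.14) and 2 (-4.46).

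The order was also counted contig by contig. MC-LR fish 3 had the highest level of the 3 MC-LR fish in 835 of the 1474 lowered contigs (56.6%), against 272 for MC-LR fish 1 and 165 for MC-LR fish 2, and the other 202 had no reads in any of them. It was the only MC-LR fish with reads on 151 lowered contigs, where MC-LR fish 1 was the only one on 29 and MC-LR fish 2 on 25. MC-LR fish 2 was without reads on 573 lowered contigs, MC-LR fish 1 on 440 and MC-LR fish 3 on 283. Among the raised contigs MC-LR fish 2 was highest in 448 (51.6%) and MC-LR fish 3 was lowest in 482 (55.5%), although with TMM MC-LR fish 3 was lowest in 303 and MC-LR fish 1 in 425. Few contigs in 1 fish lay within the range of the controls, and the contigs were listed for a difference from them. Of the raised contigs, 1, 3 and 7 in MC-LR fish 1, 2 and 3 were at or below the highest PBS fish. Of the lowered ones, 22, 24 and 33 were at or above the lowest PBS fish.

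The level that remained was also read by the level in control livers. Among the 564 lowered contigs with a PBS mean of 100 to 1000, the median level was 4.83%, 2.94% and 12.3% of the PBS mean in MC-LR fish 1, 2 and 3. Among the 97 contigs with a PBS mean over 1000 it was 1.99%, 1.12% and 12.0%. MC-LR fish 1 and 2 thus kept a smaller share of the most abundant contigs than of those of middle level, while the share in MC-LR fish 3 was nearly the same in these 2 groups. In the 806 contigs with a PBS mean of 10 to 100 the medians were 1.84%, 0% and 5.44%, which are median levels of 0.807, 0 and 2.19 normalized counts. The 661 lowered contigs with a PBS mean of at least 100 were also read by the SD across contigs of the log2 ratio to PBS. It was 1.88, 2.16 and 1.38 in MC-LR fish 1, 2 and 3, and so lowest in MC-LR fish 3. Across all 1474 lowered contigs the log2 levels of MC-LR fish 1, 2 and 3 had a Pearson's r with the PBS mean of 0.75, 0.67 and 0.88. These points are contigs of single libraries and are not independent replicates. The median level of the lowered contigs was 3.23, 1.57 and 8.02 normalized counts in MC-LR fish 1, 2 and 3. Low counts scatter more, so differences in these SDs and r cannot be told apart from the difference in level.

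**Figure D3:**
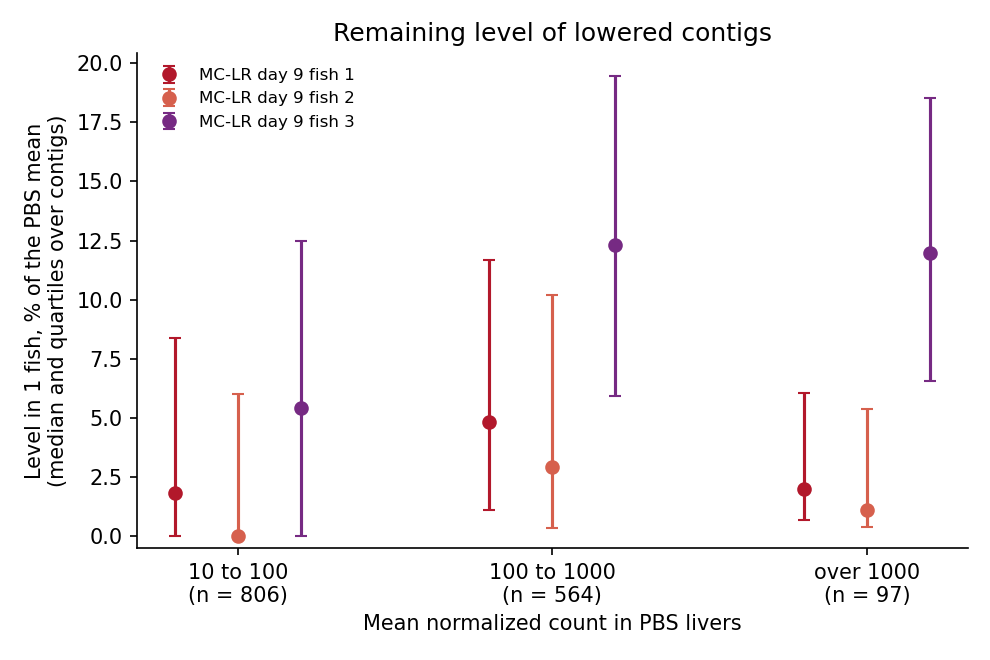
Points show the median over contigs of the level in 1 MC-LR fish of day 9, in percent of the PBS mean, with bars from the lower to the upper quartile, for lowered contigs grouped by their mean normalized count in PBS livers. MC-LR fish 3 stands at 12.3% and 12.0% in the 2 higher groups, above MC-LR fish 1 (4.83% and 1.99%) and MC-LR fish 2 (2.94% and 1.12%).

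The spread among the MC-LR fish was measured in each contig as the SD of log2(normalized count + 1). It had a median of 0.59 over the 868 raised contigs (quartiles 0.38 and 0.89), all of which had a mean of at least 10 normalized counts in the MC-LR livers. In the 371 of them that also reached 10 in the PBS livers, the median SD was 0.51 among the 3 MC-LR fish and 0.59 among the 4 PBS fish, and the MC-LR fish had the larger SD in 150. These contigs were more abundant in the MC-LR livers. At like levels the SDs of the groups were closer, with that of the MC-LR fish the larger. Raised contigs with a mean of 10 to 100 normalized counts in the group concerned, 420 in MC-LR and 307 in PBS livers, had median SDs of 0.62 and 0.61. Those with a mean of 100 to 1000, 382 and 62 contigs, had 0.56 and 0.51. The contigs differ between the groups at a like level, and an SD over 3 fish is not strictly comparable with an SD over 4. In the lowered class, 531 of the 1474 contigs reached 10 in both groups. There the median SD was 0.88 among the MC-LR fish (quartiles 0.48 and 1.66) and 0.55 among the PBS fish, and the MC-LR fish had the larger SD in 375. Lowered contigs were also read at a mean of 100 to 1000 normalized counts in the group concerned, 86 in MC-LR and 564 in PBS livers. Their median SDs were 0.95 and 0.61. These are different contigs, and 1 high MC-LR fish can lift a lowered contig past a minimum mean, which favours a wide MC-LR spread. Over all 1474 lowered contigs, many without reads in some MC-LR fish, the median ratio of highest to lowest fish (both with 1 added) was 2.85 in MC-LR and 2.78 in PBS livers. With MC-LR fish 3 left out, the median SD of lowered contigs between the remaining MC-LR fish was 0.49, against 0.98 with fish 1 left out and 0.79 with fish 2 left out. The contigs were chosen anew from the remaining fish each time, so these values cover different contigs. Whether the groups differ in spread was not tested, since the contigs were listed by a test that weighs spread.

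Differences of severalfold between livers of 1 group were found in exposed and in control fish. The highest MC-LR fish had at least 4 times the level of the lowest (both with 1 added) in 160 of the 868 raised and 554 of the 1474 lowered contigs, and at least 16 times in 22 and 101. Among the 4 PBS fish the same held at 4 times in 271 raised and 480 lowered contigs, and at 16 times in 23 and 72. At 4 times, such differences were thus more frequent in the group where the contigs were scarce, while at 16 times the raised counts were nearly equal. At 2 times they were found in 490 raised and 972 lowered contigs in the MC-LR fish, and in 626 and 1058 in the PBS fish. A range over 4 fish tends to be wider than a range over 3, so these counts are not strictly alike. A single fish held over 80% of the summed level of the 3 MC-LR fish in 8 raised contigs, 6 times MC-LR fish 2 and 2 times MC-LR fish 1. Among the 531 lowered contigs with an MC-LR mean of at least 10, a single fish held over 80% in 86, and it was MC-LR fish 3 in all 86, although this number was 166 with TMM. Group means of such contigs describe 1 fish. A high level in 1 fish can bring a lowered contig past the minimum mean. This favours such contigs among the 531, and wider differences from that fish. MC-LR fish 1 and 2 were the most alike in both classes, with a median difference of 1.51-fold over the raised and 1.73-fold over these 531 lowered contigs. MC-LR fish 1 and 3 differed by 1.71-fold and 2.04-fold, and MC-LR fish 2 and 3 by 1.67-fold and 2.57-fold. PBS fish differed from one another by 1.46-fold to 1.62-fold in raised and by 1.45-fold to 1.81-fold in lowered contigs with a PBS mean of at least 10.

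Of the contigs that stand for the extremes of level and spread, TRINITY_DN78778_c0_g1_i16 was the most abundant raised one. It had 217226, 71240.5 and 41880 normalized counts in MC-LR fish 1, 2 and 3, against 3767, 4312, 4922 and 3248 in PBS fish 1 to 4. Every MC-LR fish was above every PBS fish, which the choice of this contig required, while MC-LR fish 1 had 5.19 times the level of MC-LR fish 3. The log2 fold change was 4.76 (SE 0.86), and it was 3.80 without MC-LR fish 1.

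TRINITY_DN92637_c2_g3_i1 had the widest spread (SD of log2 values) among the raised contigs with an MC-LR mean of at least 100 and no overlap. It had 1185, 2325 and 25.5 normalized counts in MC-LR fish 1, 2 and 3. PBS fish 1, 2 and 3 had no read of it and PBS fish 4 had 4 reads, or 4.35 normalized counts. MC-LR fish 3 was therefore nearer to the controls than to the other exposed fish, though above every PBS fish, and MC-LR fish 2 had 91.1 times its level. The log2 fold change of 9.88 (SE 1.65) rests on these 4 reads of PBS fish 4, and the fit without that fish gave 13.30, which is no bound.

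TRINITY_DN92810_c0_g1_i18 was the most abundant lowered contig. It had 3540, 2172 and 20728 normalized counts in MC-LR fish 1, 2 and 3, against 136637, 99961, 108012 and 33469 in PBS fish 1 to 4. MC-LR fish 3 and PBS fish 4 lay closer to each other than to the rest of their own groups, although the groups did not overlap, as the choice required. The log2 fold change was -3.42 (SE 1.10), and it was -5.05 without MC-LR fish 3.

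TRINITY_DN109115_c8_g2_i2 had the widest spread among the MC-LR fish of all lowered contigs with a PBS mean of at least 100 and no overlap. It had 96.0, 3.92 and 1146 normalized counts in MC-LR fish 1, 2 and 3, the lowest from 5 reads, against 10573, 9970, 9693 and 7318 in the PBS fish. The PBS fish were even, with an SD of log2 values of 0.24, while that of the MC-LR fish was 3.94. Its log2 fold change was -4.50 (SE 1.47), and it was -7.55 without MC-LR fish 3. None of these 4 contigs had another isoform in the table of day 9.

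**Figure D4:**
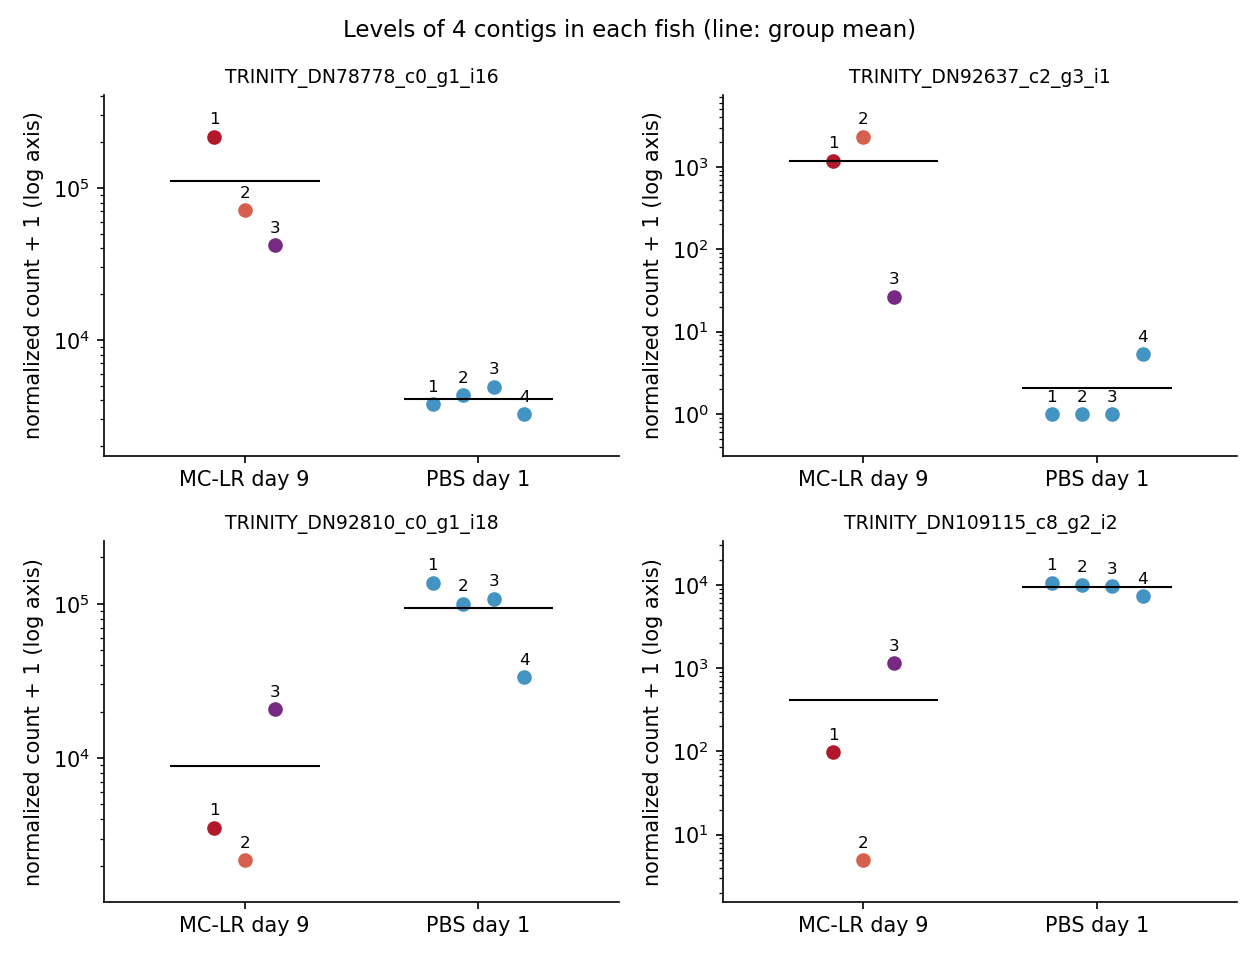
Each point is the normalized count + 1 (log axis) of 1 numbered fish and each line the group mean, for 2 raised contigs (top) and 2 lowered contigs (bottom). MC-LR fish 3 is the lowest MC-LR fish in these 2 raised contigs (41880 and 25.5 normalized counts) and the highest in these 2 lowered ones (20728 and 1146). Other abundant raised contigs had other orders of the MC-LR fish. The contigs shown were chosen among those without overlap between the groups.

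Of the 2543 contigs of day 9, 2075 were also listed at day 6, after a single injection. The day 6 list held 3866 of the 4729 contigs listed on any day, which is much the same share. That total contains the day 6 list itself, so this share is high by construction and gives no chance level for the overlap. Both lists came from comparisons with the same 4 PBS fish. Of the raised contigs 549 were listed at days 6 and 9, 109 on all 3 days, 5 at days 1 and 9, and 205 at day 9 alone. Of the lowered ones 930 were listed at days 6 and 9, 332 on all 3 days, 16 at days 1 and 9, and 196 at day 9 alone. The 205 raised at day 9 alone were scarce, with median levels of 56.5, 62.7 and 45.2 normalized counts in MC-LR fish 1, 2 and 3 and a median PBS mean of 3.42. The 196 lowered at day 9 alone had medians of 0.807, 0 and 1.46 in the MC-LR fish and a median PBS mean of 28.1. At these levels, near a single read, the log2 ratio to PBS is set by the pseudocount and does not tell the 3 MC-LR fish apart. Median log2 ratios in MC-LR fish 1, 2 and 3 were -4.12, -4.46 and -3.14 over the 930 lowered contigs of days 6 and 9, and -4.99, -5.36 and -3.55 over the 332 of all 3 days, so that MC-LR fish 3 was nearest to the controls in each. Over the raised contigs they were 3.42, 3.77 and 3.34 for days 6 and 9 and 4.37, 4.38 and 3.32 for all 3 days. Contigs not listed on another day may still have changed then, and no test compared the days.

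The fish of day 6 are given beside those of day 9, each against the PBS fish in the table of its own day. The tables were normalized separately and share their 4 PBS fish. Over the 1262 contigs lowered at day 9 and listed at day 6, the summed level was 3.94%, 2.90% and 13.1% of the PBS mean in MC-LR fish 1, 2 and 3 of day 9, and 5.68%, 7.96% and 3.38% in MC-LR fish 1, 2 and 3 of day 6. Median log2 ratios to PBS over these contigs were -4.32, -4.71 and -3.27 at day 9 and -4.41, -4.57 and -4.69 at day 6. MC-LR fish 1 and 2 of day 9 thus stood in or near the range of the day 6 fish, and MC-LR fish 3 of day 9 stood above it. Over the 658 contigs raised at day 9 and listed at day 6, the median log2 ratios were 3.59, 3.93 and 3.34 at day 9 and 3.72, 3.91 and 3.92 at day 6.

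In contigs with a mean of at least 10 normalized counts in both exposed groups, the median SD was 0.56 at day 9 and 0.47 at day 6 over 658 raised contigs, and the SD was larger at day 9 in 386 of them (58.7%). Over 332 lowered contigs the median SD was 0.77 at day 9 and 0.69 at day 6, with the larger SD at day 9 in 211 (63.6%). The upper quartile of the lowered contigs was 1.55 at day 9 and 1.03 at day 6. Here too, 1 high fish of a day can bring a lowered contig past the minimum mean, which favours a wide spread on that day. With MC-LR fish 3 of day 9 left out, the day 9 medians over the remaining fish were 0.39 in raised and 0.47 in lowered contigs, beside 0.51 and 0.85 with fish 1 left out and 0.54 and 0.72 with fish 2 left out. Leaving out 1 fish of day 6 gave day 6 medians of 0.32 to 0.46 in raised and 0.52 to 0.62 in lowered contigs. The contigs were chosen anew with each fish left out, so these medians cover different contigs. With 3 fish a day and contigs chosen by a test on the same fish, the difference between the days was not tested.

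**Figure D5:**
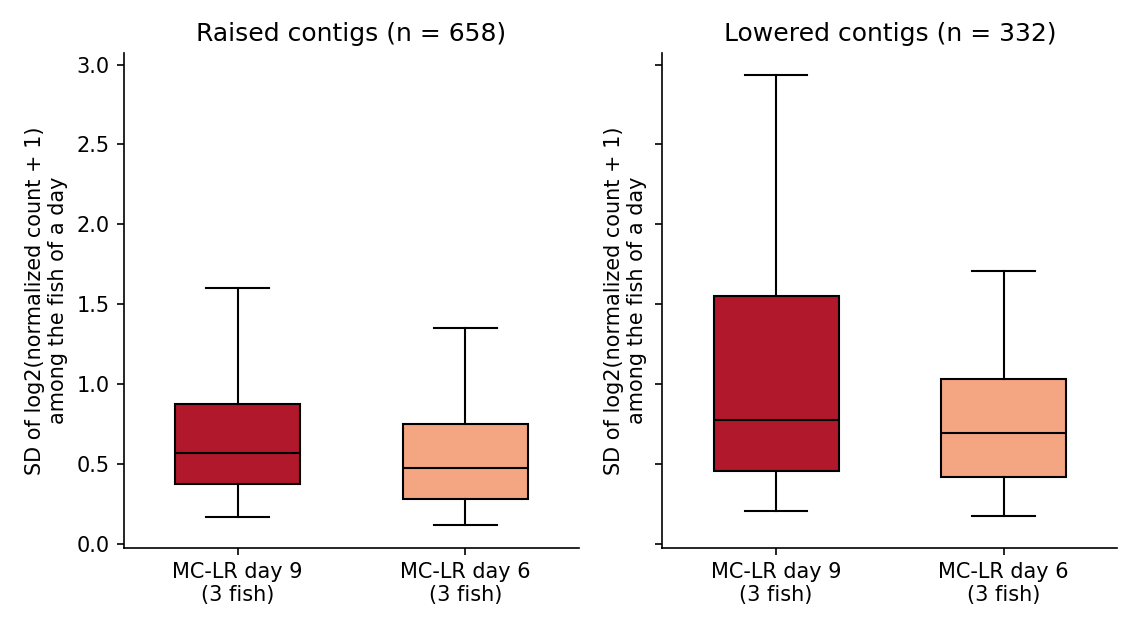
Boxes show the SD of log2(normalized count + 1) among 3 MC-LR fish of day 9 and among 3 MC-LR fish of day 6, over contigs that were raised (left, 658 contigs) or lowered (right, 332 contigs) at day 9, were listed on both days and had a mean of at least 10 in both groups, with the median, the quartiles and whiskers at percentiles 5 and 95. The medians are 0.56 and 0.47 for raised and 0.77 and 0.69 for lowered contigs.

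The contigs named above were also read in the fish of other days. TRINITY_DN78778_c0_g1_i16 had 108244, 32151 and 289694 normalized counts in the MC-LR fish of day 6 and 32645, 42614 and 147767 in those of day 1, each scaled in its own table. TRINITY_DN92637_c2_g3_i1 had 2925, 9347 and 8356 in the MC-LR fish of day 6 and 23.9, 10.1 and 100 in those of day 1. MC-LR fish 3 of day 9 was thus in the range of the day 1 fish on that contig. TRINITY_DN92810_c0_g1_i18 had 6334, 13992 and 2832 in the MC-LR fish of day 6, and TRINITY_DN109115_c8_g2_i2 had 237, 252 and 46.4. On TRINITY_DN92637_c2_g3_i1 and TRINITY_DN109115_c8_g2_i2, which were chosen for their spread at day 9, the 3 fish of day 6 lay closer together than those of day 9.

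Contigs of the same Trinity gene mostly moved together. The 2342 raised or lowered contigs came from 2190 Trinity genes, and 138 genes had several such contigs, 290 in all and at most 4 in a gene. In 44 of these genes all contigs were raised and in 92 all were lowered. Contigs in both directions were found in 2 genes. In the first of these a contig stood at 223, 372 and 243 normalized counts in MC-LR fish 1, 2 and 3, against 28.0 to 51.5 in the PBS fish. Its partner stood at 10.5, 7.83 and 209 in the MC-LR fish, against 1081 to 2213 in the PBS fish. Isoforms share sequence and may share reads, so contigs of a gene are not independent of each other.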

How the data were processed

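Liver RNA of 13 fish was sequenced as stranded, polyadenylated libraries, and 7 of them, with 3 more of day 6 and 3 of day 1 where stated, were used. After trimming (Trimmomatic 0.36), the authors built contigs with Trinity from a subset of the reads, mapped with Bowtie2, dropped redundant or scarce contigs (CD-HIT, RSEM) and those with coding potential or a database match, and took read totals per contig from SAMtools; the deposited counts are raw. The counting command, SAMtools idxstats, does not separate reads by strand, and no strand option of the mapping is given. Antisense and overlapping contigs may therefore share reads. The signal column, the mean over 7 fish of counts divided by DESeq2 size factors, was deposited by the authors. The tables also hold the fold changes, standard errors, statistics, p-values and adjusted p-values of the authors' DESeq2 1.28.0 comparison, which were not used. All count columns were matched to the 13 samples, and 0 were left over.

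Size factors were obtained by least squares from the counts and base means. Log2 fold changes, MC-LR over PBS, came from edgeR 4.0.16 (glmQLFit and glmQLFTest, group as the single term, R 4.3.3) on the 2543 contigs of day 9, with SE as the fold change over the root of the quasi-likelihood F. Raised and lowered mean beyond 2 in size. P-values are unadjusted and are no independent test of listed contigs. They weigh the difference between the groups against the spread between these fish. Levels per fish used a pseudocount of 1, and spread needed a group mean of at least 10. The fit was also run on simulated counts with the spread of the PBS fish and most contigs unchanged. That setting is unlike the listed contigs, so it does not show how the fit performs on them. Alternatives were DESeq2 1.42.0, scaling by clean reads or TMM, a mean of at least 10, other pseudocounts and minimums, the replicate number as a block, and leaving out each fish. The named contigs are, among those without overlap, the raised one with the highest MC-LR mean, the raised one (MC-LR mean of at least 100) and the lowered one (PBS mean of at least 100) with the widest spread among MC-LR fish, and the lowered one with the highest PBS mean. Other contigs are given by rank. The members and all lists and rules were chosen with earlier results of these data known.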

Additional observations from a re-analysis of the deposited data

Results flagged for a closer look

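Of 32 sets of values in the 4 PBS fish that were checked for a fish far from the others, 2 were flagged, and chance flags about 1 in 20 such sets. The raised contig of rank 4 had 170 normalized counts in PBS fish 3 and 76.7 to 84.0 in the other PBS fish. The MC-LR fish had 7058, 21001 and 17170. TRINITY_DN92637_c2_g3_i1 had 4.35 normalized counts in PBS fish 4 and no read in the other PBS fish. Groups of 3 MC-LR fish are too small for this check.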

How the results depend on the processing

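Of 428 values recomputed under other settings, 343 stayed close to the value given above (counts within 1.5 times, others within 1 SD between fish or 1 SE). Sign was checked only in the fold changes of the named contigs and the median log2 ratios of the MC-LR fish, and none changed. For the medians this was largely fixed in advance, since they cover contigs called raised or lowered by fold change. The split of contigs past the p mark and, with TMM, the order of fish 1 and 3 among raised contigs turned with the scaling. Unadjusted p under 0.001 was the least stable count: it was met by 1573 lower contigs in DESeq2, 440 with clean reads and 245 with TMM. The DESeq2 count was largely fixed in advance, since the authors listed these contigs by a DESeq2 test on the same fish. Leaving out 1 fish gave 382 to 693 higher and 286 to 853 lower contigs. With clean reads and TMM the summed raised contigs were 679828 and 787603 normalized counts in MC-LR and 43833 and 42448 in PBS livers, and the lowered sum in PBS livers was 766629 and 630776. Median log2 ratios of raised contigs in MC-LR fish 1, 2 and 3 were 4.02, 4.18 and 4.16 with TMM, 2.76, 3.03 and 2.499 with a pseudocount of 5, and 2.63, 2.91 and 2.44 over contigs with a PBS mean of at least 100, an alternative chosen after seeing the data. With clean reads they were 4.19 in fish 2 and 3.61 in fish 3. Those of lowered contigs were -2.96, -3.08 and -2.51 with a pseudocount of 5, -5.07 in fish 2 with 0.5, and -2.67 in fish 3 with TMM. With TMM, fish 2 and 3 were lowest in 238 and 303 raised contigs, and fish 1 and 2 were highest in 142 and 82 lowered ones, against 174 for fish 1 with clean reads; these counts were also added after seeing the data.

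The median SD of raised contigs among PBS fish was 0.51 with clean reads, 0.49 with TMM, 0.51 with a pseudocount of 5 and 0.49 with a minimum mean of 100. That of lowered contigs among MC-LR fish was 1.75 with TMM. In lowered contigs of both days it was 1.09 at day 9 and 0.83 at day 6 with clean reads, 1.61 and 0.92 with TMM, 1.56 and 0.79 with a minimum of 100, and 0.59 at day 6 with a pseudocount of 5. A lowered contig can also pass the minimum of 100 through 1 high fish, which favours a wide spread. A single fish held over 90% in 1 raised and 36 lowered contigs, and over 80% in 166 lowered contigs with TMM. Leaving out 1 fish, the median SDs were 0.42 to 0.59 in MC-LR and 0.52 to 0.61 in PBS fish for raised contigs, 0.49 to 0.98 and 0.51 to 0.67 for lowered ones, and on contigs of both days 0.39 to 0.57 at day 9 and 0.32 to 0.48 at day 6 for raised, 0.47 to 0.85 and 0.52 to 0.72 for lowered. A single fish then held over 80% in 8 to 104 raised and 40 to 219 lowered contigs, a share that means less between a pair of fish. Contigs without reads in MC-LR fish numbered 202 to 353, with 353 when fish 3 was left out, and the summed raised level in PBS fish was 27512 to 34312. The lowered sum in MC-LR fish was 34932 to 78676. The cause was not tested.

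Replicate numbers were not taken to pair the fish, which were separate individuals in groups kept in separate tanks. Deviations of fish with the same number correlated at -0.02, -0.04 and 0.09, and those of fish with unlike numbers at -0.15 to 0.16. These correlations alone cannot show that pairing was absent. With the number as a block, 134 contigs were higher and 121 lower at an unadjusted p under 0.001, and log2 fold changes were 13.25 for TRINITY_DN92637_c2_g3_i1 and -6.83 for TRINITY_DN109115_c8_g2_i2. TRINITY_DN92810_c0_g1_i18 stood at -2.26 with TMM.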
